A study of Mus musculus with 42 samples.

Results

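The 9 genes described here encode enzymes of one-carbon and methionine metabolism. They were chosen by name and not by a cutoff on their values, but with earlier results of these data known. Every probe set whose annotation names 1 of these genes alone was taken, which gave 17 probe sets of 8 genes among the 45037 probe sets and 18193 singly named genes of the table. There were 4 probe sets for *Shmt1*, 4 for *Shmt2*, 3 for *Mthfd1*, 2 for *Mthfd2* and 1 each for *Mat1a*, *Ahcy*, *Bhmt* and *Gnmt*. *Mat2a*, the methionine adenosyltransferase of tissues outside the liver, had no probe set that met the rule and has no values here. Probe sets whose names end in _x_at or _s_at can bind transcripts of related genes, which concerns 1 of *Shmt1*, 3 of *Shmt2* and 1 of *Mthfd1*.

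RNA was compared between mice given VAAM, an amino acid mixture made after the larval saliva of *Vespa* wasps and richer in glycine, proline and tryptophan than dietary protein, and mice given water. All were male ddY mice, an outbred stock, 5 weeks old at the start, which received 1.8% VAAM or water by feeding tube at 37.5 μL per g of body weight on 5 days and lost their food shortly before the last dose. Liver and the fats, white (WAT) and brown (BAT), were taken 4 h after that dose from 7 VAAM mice and 7 water mice, and each tissue of each mouse was measured on 1 Affymetrix array, which makes 42 arrays. Mice given the casein-like mixture CAAM were not analysed here.

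Folate carries one-carbon units that come mainly from serine and glycine and are used to build purines and thymidylate and to remethylate homocysteine to methionine. Methionine is then activated to S-adenosylmethionine, the methyl donor of the cell, and its product S-adenosylhomocysteine is split to homocysteine again. The liver handles most of the methionine of the body, and it burns excess methyl groups by methylating glycine to sarcosine.

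The deposited values lie on a log scale with a base taken as 2, since no source names it, and the summary behind them, the distribution free weighted method (DFW), shrinks the distance between arrays of most probe sets to almost nothing. A difference between VAAM and water is therefore no fold change, and it is given here as a number of SD: the mean of VAAM mice minus that of water mice, over the SD pooled within both groups, ± its standard error. Array medians ran from 6.7305 to 6.7306 in liver, from 6.9089 to 6.9146 in WAT and from 6.7750 to 6.7768 in BAT, and 16.0% to 19.0% of the probe sets differed more than 10-fold in SD between a pair of tissues, so the tissues appear to have been summarized separately. Levels are set side by side between tissues, with the percentile of the probe set within its tissue, and carry no test. An array stood apart on the first principal components once in liver (VAAM mouse 6), once in WAT (VAAM mouse 1) and in 2 cases in BAT (VAAM mice 3 and 5). All 7 measured hepatocyte markers lay above the array median in liver, all 4 adipocyte markers in WAT and BAT, and all 6 brown adipocyte markers in BAT. The 7 measured epididymis markers averaged 7.80 to 13.50 in WAT of VAAM mice and 7.14 to 12.15 in WAT of water mice, and the 6 skeletal muscle markers averaged 7.01 to 11.10 in BAT of VAAM mice and 7.12 to 11.31 in BAT of water mice.

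RefSeq promoter windows (build GRCm38.p6, 250 bases before to 50 after the start of the gene) were found for 8 of the 9 genes, all but *Mat1a*. The windows of *Bhmt* and *Gnmt*, whose levels differed most between liver and fat, and of *Mthfd2*, whose probe sets had their lowest level in liver, are printed here from 5′ to 3′ on the strand of the gene, with each CpG in capitals.

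Bhmt promoter, chr13:93637709-93638008, minus strand: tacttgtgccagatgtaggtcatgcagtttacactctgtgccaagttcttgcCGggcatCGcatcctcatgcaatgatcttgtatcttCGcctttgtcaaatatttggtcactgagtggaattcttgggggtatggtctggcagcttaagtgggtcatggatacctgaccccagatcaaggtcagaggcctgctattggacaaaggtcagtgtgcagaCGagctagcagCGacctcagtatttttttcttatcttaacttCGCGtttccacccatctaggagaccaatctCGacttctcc

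Gnmt promoter, chr17:46729116-46729415, minus strand: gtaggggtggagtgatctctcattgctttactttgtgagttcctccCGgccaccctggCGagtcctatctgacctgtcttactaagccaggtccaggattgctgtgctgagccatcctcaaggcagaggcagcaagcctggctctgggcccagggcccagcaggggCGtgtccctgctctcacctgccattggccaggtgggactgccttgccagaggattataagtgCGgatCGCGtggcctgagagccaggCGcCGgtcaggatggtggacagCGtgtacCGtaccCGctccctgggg

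Mthfd2 promoter, chr6:83317555-83317854, minus strand: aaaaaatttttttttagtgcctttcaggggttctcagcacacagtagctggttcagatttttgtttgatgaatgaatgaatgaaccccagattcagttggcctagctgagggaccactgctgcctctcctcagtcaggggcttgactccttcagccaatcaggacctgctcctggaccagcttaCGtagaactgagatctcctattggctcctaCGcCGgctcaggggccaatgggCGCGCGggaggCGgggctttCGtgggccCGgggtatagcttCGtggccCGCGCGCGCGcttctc

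The ratio of observed to expected CpG was 0.38 in *Gnmt* and 0.46 in *Bhmt*, the lowest among the 8 members, against a median of 0.38 over all 32851 windows. It was 0.62 in *Shmt1*, 0.63 in *Ahcy*, 0.64 in *Mthfd1*, 0.65 in *Mthfd2*, 0.96 in *Shmt2* and 1.05 in *Mat2a*, so 6 of the 8 members reached 0.6, as did 35.8% of all windows. The letters CCAAT, searched on both strands, stood in 7 of the 8 member windows, all but that of *Shmt2*, and in 37.4% of all windows. *Mthfd2* held CCAAT at 3 places, which 3.37% of all windows reached or passed. AGGTCA, a motif bound by many nuclear receptors, searched on both strands and chosen after the window of *Bhmt* had been read, stood at 3 places in *Bhmt* and at 1 place each in *Gnmt*, *Ahcy* and *Mthfd1*. Of all windows, 16.3% held AGGTCA at least once and 0.180% held it at 3 or more places. These matches describe the letters of the windows only.

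The members were liver genes to a large extent. Of the 17 member probe sets, 15 (88.2%) had their highest mean level in liver, against 27.1% of all probe sets, and 13 (76.5%) lay at least 1 unit above both fats in liver, against 3.07% of all probe sets. By percentile within the tissue instead of level the shares were 88.2% of the members and 35.8% of all probe sets. No array of one tissue overlapped an array of another tissue in any member probe set, but separate summaries also shift tissues as a whole, so this count is not a test. The SD of a member over the 14 arrays of a tissue ran from 2.13e-06 (*Mat1a* in BAT) to 0.0618 (*Bhmt* in WAT), which is small beside the differences between liver and the fats that follow. Between the fats it is not small for every member, since *Bhmt* differed by only -0.02 in VAAM mice and -0.06 in water mice (BAT minus WAT).

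The 4 enzymes of the methionine cycle lay at the top of the liver array and apart from their own values in fat. *Gnmt*, the glycine N-methyltransferase that disposes of surplus methyl groups, had a level of 14.07 in liver (percentile 99.9), 6.87 in WAT (percentile 48.4) and 7.05 in BAT (percentile 60.8). *Bhmt*, which remethylates homocysteine with betaine, had 13.26 in liver (percentile 99.6), 6.34 in WAT (percentile 23.0) and 6.31 in BAT (percentile 23.5). *Mat1a*, the methionine adenosyltransferase of the adult liver, had 12.40 in liver (percentile 99.0), 6.11 in WAT (percentile 11.3) and 6.03 in BAT (percentile 9.52). The level in liver thus passed that in fat by 6.90 to 7.21 units over WAT and 6.95 to 7.02 over BAT for *Bhmt* and *Gnmt* in water mice, and by 6.30 and 6.37 for *Mat1a*. *Ahcy*, the hydrolase of S-adenosylhomocysteine, was high in every tissue, with 13.52 in liver (percentile 99.7), 9.15 in WAT (percentile 88.2) and 8.93 in BAT (percentile 89.0). In the fats the 3 genes *Mat1a*, *Bhmt* and *Gnmt* were therefore in the lower or middle range of the array, and *Ahcy* was not.

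**Figure D1:**
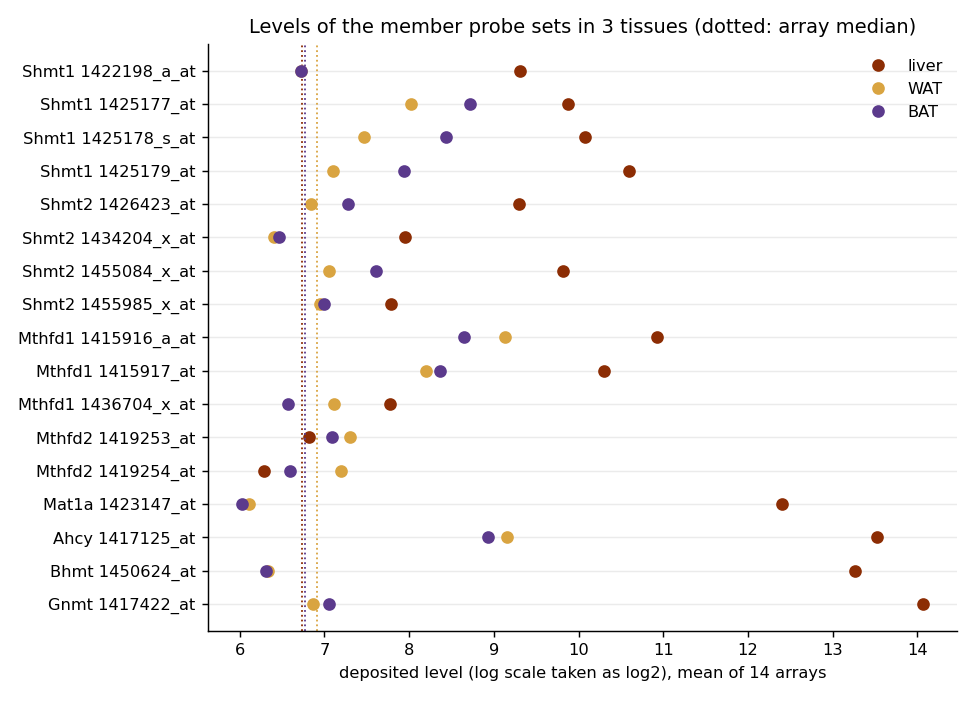
Mean deposited level (log scale taken as log2, 14 arrays per tissue) of the 17 member probe sets in liver, WAT and BAT, with the array medians as dotted lines. The 2 *Mthfd2* probe sets are the only ones whose liver point lies left of both fat points, and the liver points of *Gnmt*, *Ahcy*, *Bhmt* and *Mat1a* lie between 12.40 and 14.07.

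Among the folate enzymes the cytosolic ones shared the liver pattern. *Shmt1*, the cytosolic serine hydroxymethyltransferase that moves a carbon of serine to folate and leaves glycine, had 10.60 in liver, 7.10 in WAT and 7.94 in BAT by probe set 1425179_at, with percentiles of 96.5, 56.3 and 78.7 in that order. All 4 *Shmt1* probe sets ran liver, BAT, WAT from high to low, although BAT and WAT of 1422198_a_at both had 6.72. *Mthfd1*, the cytosolic enzyme with synthetase, cyclohydrolase and dehydrogenase activity, had 10.93 in liver, 9.13 in WAT and 8.65 in BAT by probe set 1415916_a_at. Its probe sets did not give one order for the fats, since 1415917_at was 0.17 higher in BAT than in WAT, while 1415916_a_at and 1436704_x_at were lower in BAT by 0.48 and 0.54.

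The 2 mitochondrial folate enzymes went different ways. *Shmt2*, the mitochondrial serine hydroxymethyltransferase, followed the cytosolic one, with 9.82 in liver, 7.05 in WAT and 7.61 in BAT by probe set 1455084_x_at, and all 4 of its probe sets ran liver, BAT, WAT. *Mthfd2*, the mitochondrial dehydrogenase and cyclohydrolase known from growing and embryonic cells, had 6.82 in liver, 7.30 in WAT and 7.09 in BAT by 1419253_at and 6.29, 7.20 and 6.59 by 1419254_at. Its liver percentiles were 54.2 and 24.1, and no other member gene had a probe set whose level was lowest in liver. Between the fats, 10 of the 17 member probe sets (58.8%) were higher in BAT than in WAT, against 37.0% of all probe sets, and by percentile 13 of 17 (76.5%) against 52.3%. By level these 10 were all probe sets of *Shmt1* and *Shmt2*, 1415917_at of *Mthfd1* and that of *Gnmt*. Every probe set of *Mthfd2*, *Mat1a*, *Ahcy* and *Bhmt* had a lower level in BAT. The share by level thus rests mostly on 2 genes, whose probe sets are not separate observations.

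The surrounding pathway, 62 further genes listed by function of which 56 were measured, was split. Of these 56 genes, 24 had their highest level in liver, against 27.1% of all probe sets. Their lowest level was in liver for 25, a share close to the 45.4% of all probe sets. The liver side held the transsulfuration and glutathione genes (6 of 7 highest in liver) and the genes of homocysteine remethylation and betaine breakdown (6 of 9). The largest excess of liver over WAT was that of *Bhmt2* (6.07), a methyltransferase related to *Bhmt*, followed by *Ftcd* of histidine breakdown (5.58) and *Pipox*, which oxidizes sarcosine and pipecolic acid (5.04). Over BAT it was that of *Cth*, the cystathionine gamma-lyase (6.07), followed by *Bhmt2* (6.04) and *Ftcd* (5.61).

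The fat side held serine synthesis. *Psat1*, the phosphoserine aminotransferase, had 6.27 in liver (percentile 22.5), 10.93 in WAT (percentile 97.1) and 6.62 in BAT (percentile 41.9), the largest deficit of liver against WAT (-4.66). *Phgdh*, which opens the pathway from 3-phosphoglycerate to serine, had 7.99 in liver, 10.37 in WAT and 8.53 in BAT. Of the serine synthesis and glycine cleavage list, 5 of 6 genes had their lowest level in liver, *Gcsh* by no more than 0.13 units, and the exception was *Gldc*, the glycine decarboxylase, with 9.76 in liver, 6.62 in WAT and 6.37 in BAT. *Nnmt*, which spends S-adenosylmethionine on nicotinamide and is known to be high in white fat, had 7.86 in liver, 11.16 in WAT and 8.17 in BAT, and *Ahcyl2*, a relative of *Ahcy*, differed by -2.47 units in liver against WAT. Against BAT the largest deficits of liver were those of *Dld* (-2.40), a subunit shared by the glycine cleavage system and mitochondrial dehydrogenases, *Ahcyl1* (-2.20) and *Psph* (-2.10), the last enzyme of serine synthesis. Between the fats, BAT passed WAT most in *Ahcyl1* (2.08), *Dld* (1.96) and *Psph* (0.69), and lay furthest below it in *Psat1* (-4.31), *Nnmt* (-2.98) and *Phgdh* (-1.85).

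**Figure D2:**
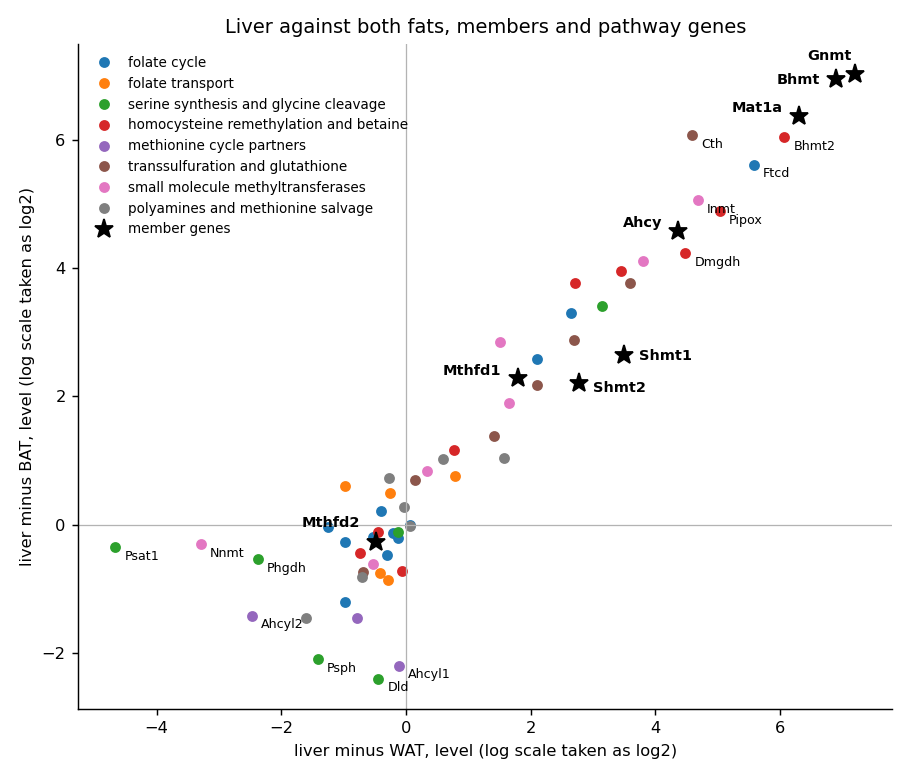
Level in liver minus level in WAT (x axis) and minus level in BAT (y axis), both on the log scale taken as log2, for the 8 member genes (stars, water mice) and the 56 pathway genes (circles, all mice), coloured by list. *Gnmt*, *Bhmt* and *Mat1a* stand at the upper right with over 6 units in both directions, *Mthfd2* is the member star below 0 on both axes, and *Psat1* is the leftmost point.

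The question put to the VAAM arrays was whether these genes respond to the mixture within a tissue. No member probe set passed limma with adjustment over all probe sets in any tissue, and neither did any other probe set (0 of 45037, or 0%, in liver, WAT and BAT). At an unadjusted limma p under 0.05 there were 4096 probe sets in liver (9.09%), 1692 in WAT (3.76%) and 2296 in BAT (5.10%). Limma was also run on simulated data, with noise drawn independently for each probe set and 50 of 45037 probe sets changed at each size. There it found 58% of changes of 3 SD in liver, 46% in WAT and 60% in BAT, but only 10% to 12% of changes of 2 SD. In such data a change of 2 SD or less would mostly be missed after adjustment. Probe sets of the real arrays also vary together, which the simulation leaves out, so these shares may not carry over. Beside these counts stands a two-sided exact permutation p for each of the 51 member comparisons over the 3432 splits of 14 mice, unadjusted, whose smallest possible value is 5.83e-04.

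In liver, 8 member probe sets were higher and 9 lower in VAAM mice, with a median of -0.03 SD against -0.05 SD over all probe sets. The exact p was under 0.05 in 0 of 17 members and in 8.90% of all probe sets. In WAT, 15 were higher and 2 lower, with a median of 0.32 SD against -0.01 SD over all probe sets, and the exact p was under 0.05 in 2 of 17 (*Mat1a* and 1 *Mthfd1* probe set, both higher), against 4.08% of all probe sets in either direction and 1.87% in that of higher values. In BAT, 6 were higher and 11 lower, with a median of -0.09 SD against -0.02 SD, and the exact p was under 0.05 in 2 of 17 (both *Shmt1*, both lower), against 5.57% of all probe sets in either direction and 3.38% in that of lower values. Of all probe sets, 46.7% were higher in VAAM mice in liver, 49.4% in WAT and 48.6% in BAT. In each of the 51 comparisons the values of VAAM and water mice overlapped, while 0.155% of all probe sets in liver, 0.0488% in WAT and 0.0955% in BAT had groups that did not overlap. Probe sets of one gene share their RNA, and the WAT probe sets share the arrays, so the 15 higher values in WAT are not 15 separate observations. That direction also turned with the scaling: after quantile normalization and after median centring 2 of the 17 were higher in WAT, where 1765 and 1008 of all probe sets were higher under those scalings.

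**Figure D3:**
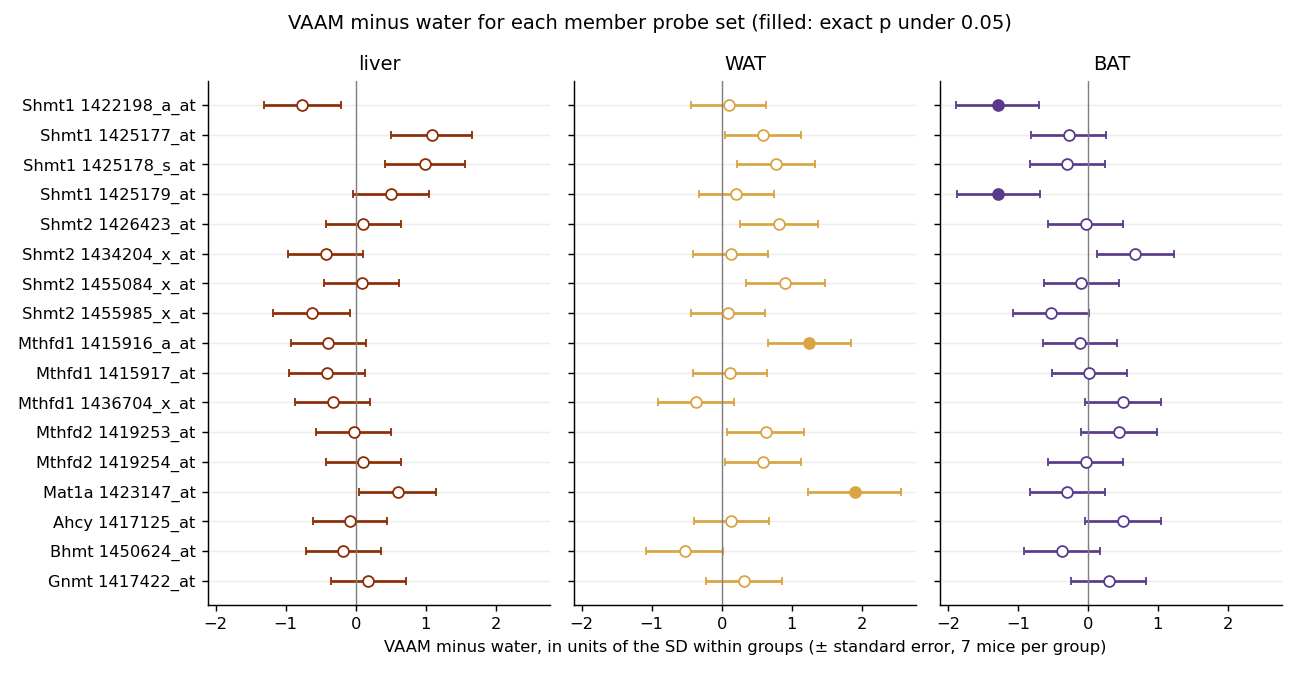
VAAM minus water in units of the SD within groups (points) with its standard error (bars), 7 mice per group, for each member probe set in liver, WAT and BAT. Filled points have an unadjusted exact p under 0.05, which are *Mthfd1* 1415916_a_at and *Mat1a* in WAT and *Shmt1* 1422198_a_at and 1425179_at in BAT.

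The *Shmt1* probe sets differed among themselves. In liver its probe set 1425177_at had a lowest, median and highest value of 9.865, 9.879 and 9.884 in VAAM mice, against 9.860, 9.873 and 9.881 in water mice. VAAM mouse 5 alone was under the median of water mice, and the groups overlapped. The difference was 1.09 ± 0.579 SD (exact p 0.0659, n = 7 each, limma adjusted p 0.563). With single arrays left out it ran from 0.92 SD (without water mouse 6) to 1.63 SD (without VAAM mouse 5). The exact permutation p then lay between 0.0169 and 0.131. Probe set 1425178_s_at differed by 0.99 ± 0.571 SD (exact p 0.0915) and followed 1425177_at from mouse to mouse (r = 0.87 within groups, 14 arrays that both probe sets share). Probe set 1425179_at ran the same way to a smaller extent, with 0.51 ± 0.545 SD (exact permutation p 0.353) and an r of 0.65 with either of them. Probe set 1422198_a_at did not, with -0.76 ± 0.556 SD (exact permutation p 0.179) and an r of -0.06 with 1425177_at and -0.28 with 1425178_s_at.

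In BAT the 2 probe sets with an exact p under 0.05 were the other pair. Probe set 1425179_at had 7.9399, 7.9418 and 7.9467 in VAAM mice, against 7.9427, 7.9445 and 7.9470 in water mice (lowest, median and highest). VAAM mouse 5 was the only VAAM mouse above the water median, and the 5 lowest values were all from VAAM mice. The difference was -1.28 ± 0.595 SD (exact p 0.0367, n = 7 each, limma adjusted p 0.946). Probe set 1422198_a_at had 6.7229, 6.7238 and 6.7263 in VAAM mice and 6.7242, 6.7253 and 6.7264 in water mice, again with VAAM mouse 5 alone above the water median. It differed by -1.29 ± 0.596 SD (exact p 0.0373, n = 7 each, limma adjusted p 0.946), and both probe sets varied together (r = 0.94 within groups, 14 arrays). Probe sets 1425177_at and 1425178_s_at differed by -0.27 ± 0.537 and -0.29 ± 0.538 SD, so the lower value in BAT was carried by 2 of the 4 *Shmt1* probe sets. These 2 had the lower levels in BAT, at percentiles 47.5 (1422198_a_at) and 78.7 (1425179_at), against 87.3 (1425177_at) and 84.6 (1425178_s_at). Taken by the probe set with the highest level, 0 of 8 member genes had an exact p under 0.05 in BAT. The call of 1422198_a_at was lost after quantile normalization and after median centring (-1.10 and -1.09 SD, exact permutation p 0.0635 for each), whereas 1425179_at had -1.25 and -1.24 SD (exact permutation p 0.0390 and 0.0425). With the mouse number as a block the exact paired permutation p was 0.0938 for both.

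BAT of VAAM mouse 5 is an array that stood apart, and its muscle markers averaged 10.44. That average was not particular to it, with 10.67 and 11.10 in VAAM mice 1 and 7 and 11.31 and 10.43 in water mice 1 and 3. Without the array of VAAM mouse 5 the differences were -2.23 SD for 1425179_at (exact permutation p 0.00408) and -2.36 SD for 1422198_a_at (exact permutation p 0.00350). Leaving out VAAM mouse 3 instead gave -1.11 and -1.12 SD (exact permutation p 0.0711 and 0.0705). Without the 6 BAT arrays highest in muscle markers, which leaves 4 mice a group, they were -2.0 and -2.03 SD (exact permutation p 0.0571 for each). With 4 mice a group there are far fewer splits, so this p moves in coarse steps and cannot be set against those of larger groups. The muscle markers as a list did not separate the groups in BAT (exact permutation p 0.785). In BAT the 7 hepatocyte markers, 4 of them below the array median, averaged 7.17 to 7.18 in VAAM mice and 7.16 to 7.17 in water mice (exact permutation p 0.00816), and the 4 adipocyte markers averaged 10.41 to 10.42 in VAAM mice and 10.41 in each water mouse (exact permutation p 0.0402). The part of other cell types in the *Shmt1* values was not tested beyond this. In 1 limma fit over the 42 arrays, which shares the spread between tissues, both probe sets passed in BAT (adjusted p 0.0342 for 1425179_at and 0.0323 for 1422198_a_at). That is 2 of 17 member probe sets, both of 1 gene, against 0.699% of all probe sets. Their SD within groups, in that order, was 0.00195 and 9.68e-04 in BAT, 2.75e-05 and 2.83e-05 in liver, and 2.04e-05 and 8.62e-06 in WAT. The shared spread is therefore too small for BAT, and these adjusted p are not a valid test of the 2 probe sets there.

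**Figure D4:**
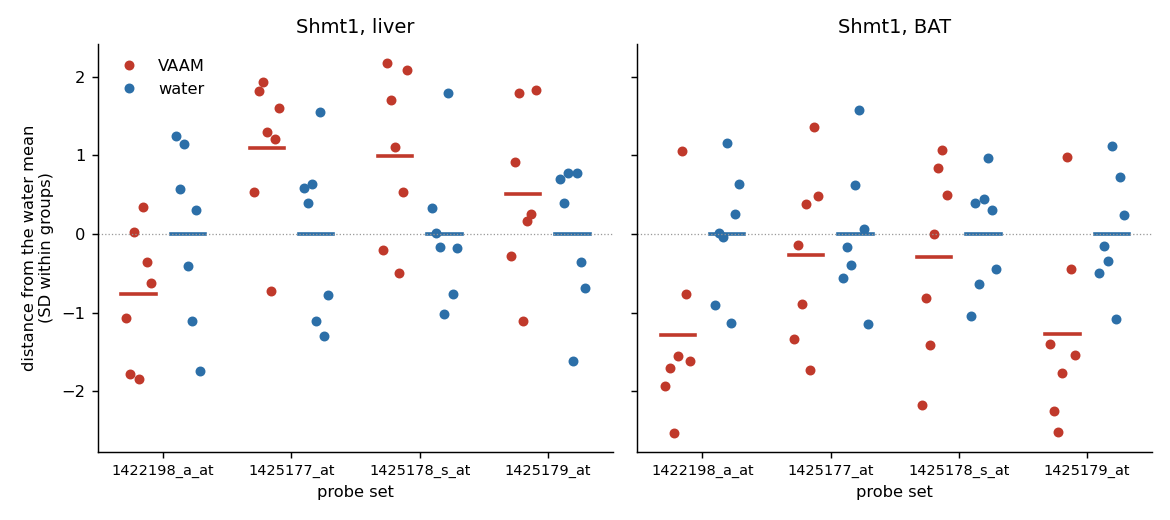
Values of the 4 *Shmt1* probe sets in each mouse, in liver (left panel) and BAT (right panel), as the distance from the water mean in SD within groups, with VAAM mice left of water mice and bars at the group means. In BAT, 6 of 7 VAAM mice lie under the median of water mice for 1422198_a_at and 1425179_at, and in liver 6 of 7 lie above it for 1425177_at.

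*Mat1a* in WAT had the largest difference in SD among the 51, at a level near the floor of the array. Its lowest, median and highest values were 6.105000, 6.105005 and 6.105014 in VAAM mice, against 6.104994, 6.104999 and 6.105004 in water mice. Each VAAM mouse exceeded the median of the water mice, and the groups overlapped between 6.105000 and 6.105004. The difference was 1.90 ± 0.661 SD (exact p 0.00117, n = 7 each, limma adjusted p 1), and it ran from 1.75 to 2.38 SD when single arrays were left out. This SD was 3.94e-06 on the deposited scale, and the level lay at percentile 11.3 of WAT, so the values give the order of the mice and no amount of transcript. After quantile normalization the difference was -0.66 SD and after median centring -0.59 SD. In liver, where *Mat1a* is abundant, it differed by 0.60 ± 0.549 SD, and in BAT by -0.29 ± 0.538 SD (exact permutation p 0.274 and 0.585).

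*Mthfd1* in WAT differed by 1.25 ± 0.593 SD in probe set 1415916_a_at (exact p 0.0385, n = 7 each, limma adjusted p 1), with 9.134611, 9.134619 and 9.134637 in VAAM mice against 9.134598, 9.134611 and 9.134619 in water mice. Each VAAM value exceeded the median of water mice, with overlap. The other *Mthfd1* probe sets gave 0.12 ± 0.535 and -0.37 ± 0.540 SD, the mean of the 3 gave 0.12 SD, and quantile normalization gave -0.26 SD. The gene as a whole therefore had no stable direction in WAT. In liver its 3 probe sets lay between -0.33 and -0.41 SD, and in BAT between -0.11 and 0.50 SD.

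In WAT both *Mthfd2* probe sets and 1 of the 4 *Shmt2* probe sets ran with the epididymis markers of the array. *Mthfd2* 1419254_at had 7.179, 7.202 and 7.271 in VAAM mice, against 7.178, 7.188 and 7.208 in water mice (lowest, median and highest). The highest VAAM value was that of mouse 1, and the highest water values, 7.208 and 7.207, were those of mice 1 and 2. The same arrays were highest in epididymis markers, with 13.50 in VAAM mouse 1 and 10.18 in VAAM mouse 2, and with 12.15 in water mouse 1 and 10.74 in water mouse 2, against 7.80 to 8.65 in the other VAAM mice and 7.14 to 7.53 in the other water mice. *Mthfd2* 1419253_at gave the same picture, with 7.317 in VAAM mouse 1, 7.299 in VAAM mouse 2, 7.300 in water mouse 1 and 7.299 in water mouse 2. VAAM minus water was 0.63 ± 0.550 SD for 1419253_at and 0.59 ± 0.548 SD for 1419254_at (exact permutation p 0.248 and 0.334).

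*Shmt2* 1455084_x_at had 7.04499, 7.04507 and 7.04560 in VAAM mice, against 7.04481, 7.04496 and 7.04530 in water mice. The highest VAAM value was again that of mouse 1 and the highest water value that of mouse 1. The difference was 0.91 ± 0.566 SD (exact permutation p 0.114, n = 7 each), and no VAAM mouse fell below the median of water mice. *Shmt2* 1455084_x_at and *Mthfd2* 1419254_at ran together within groups with r = 0.84 over 14 arrays and r = 0.74 over the 13 without VAAM mouse 1, and *Ahcy* and *Mthfd2* 1419254_at with r = 0.82 and 0.86. For *Shmt2* 1426423_at the r with 1419254_at was 0.81 over 14 arrays and 0.15 without VAAM mouse 1. The *Shmt2* probe set 1434204_x_at had an r of 0.75 with 1419254_at over 14 arrays and of 0.27 without VAAM mouse 1, and 1455985_x_at one of -0.12 and 0.25. With the mean of the epididymis markers within groups, r was 0.81 for *Mthfd2* 1419253_at, 0.83 for 1419254_at, 0.91 for *Shmt2* 1455084_x_at and 0.80 for *Ahcy* over 14 arrays, and 0.89, 0.73, 0.84 and 0.70 without VAAM mouse 1. The other *Shmt2* probe sets had 0.70 (1426423_at), 0.66 (1434204_x_at) and 0.00 (1455985_x_at), and 0.37, 0.35 and 0.23 without that array. These correlations describe values of the same arrays and carry no test.

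Without the 3 WAT arrays highest in epididymis markers (VAAM mouse 1 and water mice 1 and 2), VAAM minus water was 1.69 SD for *Mthfd2* 1419253_at (exact permutation p 0.0216), 0.94 SD for 1419254_at (exact permutation p 0.156) and 1.89 SD for *Shmt2* 1455084_x_at (exact permutation p 0.00649), over 6 VAAM and 5 water mice. Without VAAM mouse 1 alone, the array that stood apart, they were 0.39, 0.24 and 0.71 SD, the smallest of the 3 settings. The epididymis markers of the remaining mice were still higher in VAAM mice (7.80 to 10.18) than in water mice (7.14 to 7.53), and their part in these differences was not tested. Fewer cells of a type and less RNA per cell cannot be told apart in bulk tissue. In the other tissues the *Mthfd2* probe sets lay between -0.03 and 0.11 SD in liver and between -0.03 and 0.45 SD in BAT, and those of *Shmt2* between -0.63 and 0.11 SD in liver and between -0.52 and 0.68 SD in BAT.

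**Figure D5:**
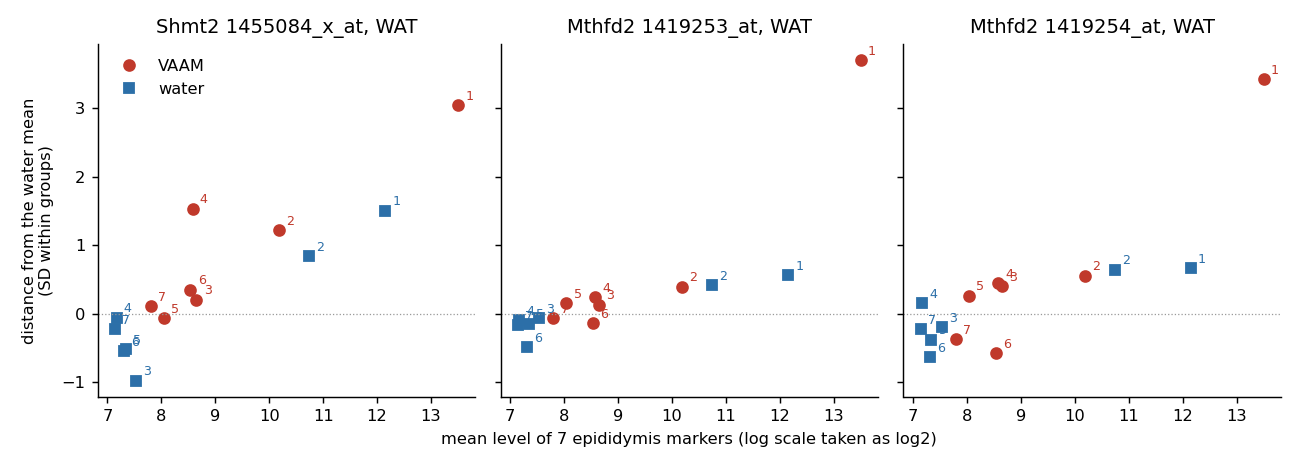
Distance from the water mean in SD within groups for *Shmt2* 1455084_x_at and 2 *Mthfd2* probe sets in WAT (y axis) against the mean level of the 7 epididymis markers of the same array (x axis, log scale taken as log2), with VAAM mice as circles and water mice as squares, numbered by mouse. VAAM mouse 1 is highest on both axes in each panel, and water mice 1 and 2 are the highest among water mice.

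The remaining members gave differences under 0.6 SD in every tissue. *Bhmt* in liver had 13.2515, 13.2587 and 13.2594 in VAAM mice, against 13.2544, 13.2585 and 13.2594 in water mice, and mouse 6 was the lowest of either group. VAAM minus water was -0.18 ± 0.536 SD with all mice (exact permutation p 0.744) and 0.39 SD without VAAM mouse 6. By correlation over the 14 liver arrays the genes most like *Bhmt* were *Usp42* (r = 0.97), *Bhmt2* (r = 0.93) and *Tmem19* (r = 0.92), all measured on the same arrays. In WAT the *Bhmt* value of water mouse 2 was 6.557, while the VAAM mice had 6.320 to 6.338 and the other water mice 6.315 to 6.349. VAAM minus water was -0.53 ± 0.545 SD in WAT (exact permutation p 0.483) and -0.02 SD without that array. On that array the epididymis markers averaged 10.74, less than the 13.50 of VAAM mouse 1 and the 12.15 of water mouse 1. The hepatocyte markers averaged 7.87 on every WAT array, and the part of other tissue in the *Bhmt* value was not tested. *Gnmt* differed by 0.18 ± 0.536 SD in liver, 0.32 ± 0.539 SD in WAT and 0.30 ± 0.538 SD in BAT, and *Ahcy* by -0.08 ± 0.535, 0.14 ± 0.535 and 0.50 ± 0.544 SD, all with an exact permutation p of 0.368 or more.

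Whether a member responded differently in one tissue than in another was tested by the interaction of VAAM and tissue on values scaled to unit SD in each tissue. No member probe set passed (smallest adjusted p 0.415, *Mthfd1* 1415916_a_at for liver minus WAT, limma), while 0.249% of all probe sets passed for liver minus WAT, 0.153% for liver minus BAT and 0.0200% for BAT minus WAT. The scaling fixes each spread at 1, and the fit treats the tissues of a mouse as independent although they share it. The lower *Shmt1* values in BAT and the higher *Mat1a* value in WAT are thus not shown to be particular to their tissue.

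Rank products, the method named in the study's methods, called more members. At a false discovery rate under 0.05 it called 4 of 17 member probe sets in liver (23.5%, against 3.84% of all probe sets), 3 of 17 in WAT (17.6%, against 3.31%) and 2 of 17 in BAT (11.8%, against 4.05%). In liver these were *Shmt1* 1425177_at and 1425178_s_at and *Mat1a*, higher, and *Mthfd1* 1436704_x_at, lower. In WAT they were both *Mthfd2* probe sets, higher, and *Bhmt*, lower, and in BAT the *Shmt1* probe sets 1422198_a_at and 1425179_at, lower. The method ranks raw differences over the 49 pairs of arrays, and all 9 calls fell on probe sets whose SD within groups lay at percentile 95.2 or above in their tissue. On values scaled to unit SD it called 1 of the 51, *Mat1a* in WAT (false discovery rate 0.0486), against 0.888% of all probe sets in liver, 0.162% in WAT and 0.335% in BAT. Without water mouse 2, rank products called 1680 probe sets in WAT and did not call *Bhmt* (false discovery rate 0.162 for lower), while both *Mthfd2* probe sets passed as higher (0.0103 and 0.00378). With all mice these 2 had 0.0272 and 0.0114. Water mouse 2 was 1 of the 2 water mice highest in *Mthfd2* and in epididymis markers (10.74). Leaving it out thus lowers the *Mthfd2* mean of water mice and leaves the groups less alike in those markers.

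The partner genes of the pathway did not pass limma in any tissue (smallest adjusted p 0.438 in liver, 1 in WAT and 0.901 in BAT). In liver 29 of the 56 were higher and 27 lower in VAAM mice (median 0.02 SD), in WAT 32 and 24 (median 0.06 SD) and in BAT 27 and 29 (median -0.02 SD). The exact p was under 0.05 for 3 of 56 in each tissue (5.36%), against 8.90% of all probe sets in liver, 4.08% in WAT and 5.57% in BAT, and the genes that follow are given as a description. *Nnmt* was among them in liver and in BAT. In BAT it had 8.1721, 8.1750 and 8.1762 in VAAM mice, against 8.1682, 8.1716 and 8.1729 in water mice, with each VAAM mouse higher than the median of water mice and a difference of 2.23 ± 0.702 SD (exact permutation p 0.00233). In liver it had 7.69, 8.08 and 8.43 in VAAM mice, against 7.22, 7.53 and 8.37 in water mice, with each VAAM mouse higher than the median of water mice and a difference of 1.34 ± 0.60 SD (exact permutation p 0.0344). In WAT, where its level was highest, it differed by 0.56 ± 0.547 SD (exact permutation p 0.321).

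The other liver genes were *Phgdh* (-1.55 ± 0.621 SD, exact permutation p 0.0152) and *Pipox* (-1.38 ± 0.605 SD, exact permutation p 0.0297), both with 0 of 7 VAAM mice higher than the median of water mice. In WAT they were *Gldc* (1.28 ± 0.595 SD, exact permutation p 0.0309), *Bhmt2* (1.21 ± 0.588 SD, exact permutation p 0.0437) and *Mthfd1l*, the mitochondrial formyltetrahydrofolate synthetase (0.90 ± 0.565 SD, exact permutation p 0.0390). The lowest value in WAT was that of *Mat2b*, a regulatory subunit of methionine adenosyltransferase (-1.12 ± 0.582 SD, exact permutation p 0.0577). In BAT the genes with an exact p under 0.05 beside *Nnmt* were *Mtr*, the methionine synthase (-2.07 ± 0.682 SD, exact permutation p 0.00291, 0 of 7 VAAM mice higher than the median of water mice), and *Cth* (1.55 ± 0.621 SD, exact permutation p 0.0169). The level lay below the middle of the tissue for *Bhmt2* in WAT (percentile 8.70), *Cth* in BAT (26.7), *Gldc* in WAT (37.3) and *Mtr* in BAT (46.9). *Nnmt* in liver had SDs of 0.292 in VAAM mice and 0.410 in water mice on the deposited scale, and the other comparisons with an exact p under 0.05 had SDs of 0.00183 or less. Rank products called 11 of the 56 in liver (19.6%, against 3.84% of all probe sets), 5 in WAT (8.93%, against 3.31%) and 5 in BAT (8.93%, against 4.05%). These shares are of unlike sets. Each of the 56 stood by its probe set with the highest mean, while all probe sets include weak ones and ones that name no gene. The method also ranks raw differences, which follow the spread of a probe set. In liver *Nnmt*, *Cbs*, *Slc46a1*, *Tpmt* and *As3mt* passed as higher, *Mthfd1l*, *Gclc*, *Hnmt*, *Inmt* and *Mtap* as lower, and *Csad* in both directions at once. In WAT *Nnmt*, *Mthfd1l*, *Pipox* and *Pemt* passed as higher and *Gamt* as lower, and in BAT *Nnmt*, *Cth*, *Psat1* and *Folr2* as higher and *Chdh* as lower. On unit SD the only call was *Nnmt* in BAT, higher.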

How the data were processed

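RNA of liver, WAT and BAT of 7 VAAM and 7 water mice was hybridized to Affymetrix mouse genome arrays. The authors summarized the arrays by DFW in R (version 2.7.2 in the submitters' processing notes), and the deposited log2 values per probe set were used as they are; base 2 is an assumption, since the sources used here name no base. The table has 45101 probe sets, of which 64 controls were left out, and no filter on low values was set. Of the rest, 34945 name 1 gene, 932 several and 9160 none in the platform annotation. The members and lists were chosen with earlier results of these data known.

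VAAM and water were compared within each tissue by limma 3.58.1 in R 4.3.3 with Benjamini-Hochberg adjustment at 0.05, by two-sided exact permutation over the splits of 14 mice, and by rank products with 50 permutations in Python 3.11.15. The interaction used 1 fit on values scaled to unit SD. The number of arrays limits the precision. So do the shrinkage by DFW, the choice of scaling, probe sets of 1 gene that disagree, and other tissue in WAT and BAT arrays. Limma was tested on simulated data. All 9 members and all their probe sets are named; partner genes are named where they had the highest or lowest VAAM minus water in a tissue, since none passed limma, or were among the 3 highest or 3 lowest differences between tissues. Those named for an exact p under 0.05, a rank products call or to describe a list were chosen after their values were seen. Of several probe sets, that with the highest mean stood for a pathway gene (over the arrays of the tissue for VAAM against water, over all arrays for levels). Alternatives were a block for the mouse number, quantile normalization, median centring, probe sets with means above the median, a trend and robust prior, 1 fit over all 42 arrays, the mean of the probe sets of a gene and leaving out arrays. Arrays stood apart when a score on the first 3 components passed 2.2 SD. The labels do not say that the replicate numbers pair VAAM with water mice.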

Additional observations from a re-analysis of the deposited data

Results flagged for a closer look

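Of 102 groups of 7 arrays (17 member probe sets, 3 tissues, VAAM and water), 8 held a mouse whose gap to the nearest other mouse was over 0.568 of the range of the group. Chance flags about 1 in 20 groups. In WAT, VAAM mouse 1 was the highest of its group in 4 of them: *Mthfd2* 1419253_at (0.861 of the range), *Mthfd2* 1419254_at (0.716), *Shmt2* 1426423_at (0.723) and *Shmt2* 1434204_x_at (0.618). This array also had the highest epididymis markers, 13.50 on average, and the part of that tissue in the values was not tested. Water mouse 2 was the highest of its group for *Bhmt* in WAT (0.859). VAAM mouse 6 was the lowest of its group for *Bhmt* in liver (0.612). In BAT, VAAM mouse 5 was the highest of its group for *Gnmt* (0.619), and water mouse 1 the lowest of its group for *Mthfd1* 1436704_x_at (0.677).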

How the results depend on the processing

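Limma called 0 probe sets in each tissue with the main settings. Counts for liver, WAT and BAT were 691, 129 and 315 with 1 fit over the 42 arrays, which shares 1 spread between tissues, 1731, 1492 and 1824 with rank products, and 400, 73 and 151 with rank products on unit SD. Rank products without water mouse 2 called 1680 in WAT. In the fit over the 42 arrays *Shmt1* 1422198_a_at and 1425179_at passed as lower in BAT of VAAM mice (limma adjusted p 0.0323 and 0.0342), and no other member did in any tissue. Their SD was far larger in BAT than in liver and WAT, so the shared spread is too small for them in BAT. Leaving out single arrays gave 0 to 5 calls in liver, with 5 without water mouse 2 and 1 without VAAM mouse 5, and 0 in the fats. Quantile normalization gave 1 in liver. The interaction called 190 probe sets over its 3 contrasts, 67 on the deposited scale and 5 after quantile normalization, where only 43441 had a spread.

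With the mouse number as a block limma called 1 probe set in liver and the interaction 388. Mice of the same number mostly deviated together little (r from -0.14 to 0.14 in liver, -0.08 to 0.54 in WAT and -0.20 to 0.19 in BAT, with medians of 0.04, 0.07 and 0.04). The best match of an array had its own number in 1 of 7 pairs in liver, 3 of 7 in WAT and 3 of 7 in BAT. The labels name no pairing, and whether the numbers follow an order of handling was not tested. Under this block *Shmt1* in BAT had an exact paired permutation p of 0.0938 for both probe sets.

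*Mthfd1* 1415916_a_at in WAT turned to -0.26 SD with quantile normalization and -0.59 SD with median centring, and *Mat1a* in WAT to -0.66 and -0.59 SD. Both scalings shift whole arrays by more than the SD of most probe sets: in WAT 43134 and 44029 of the 45037 probe sets were then lower in VAAM mice. Counts of member probe sets that changed sign were 13 of 17 in WAT under either scaling. In liver they were 2 of 15 and 4 of 17, and in BAT 8 and 5 of 17. *Shmt1* 1422198_a_at in BAT had -1.10 and -1.09 SD (exact permutation p 0.0635 for each), and leaving out single arrays took its exact permutation p to between 0.00350 and 0.0711. Leaving out water mouse 2 in rank products, the WAT arrays high in epididymis markers and the BAT arrays high in muscle markers was added after the data had been seen. Tests between tissues were not run, because the tissues appear to have been summarized separately. With 7 mice a group, most changes of 2 SD or less stayed undetected in simulated data with independent noise.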
